A study of Homo sapiens with 4 samples.

Results

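Secreted cytokines and chemokines were followed across 4 RNA sequencing libraries of human melanoma cells, as 9 genes chosen by name: CXCL8, CXCL1, CXCL2, CCL2, IL6, IL11, LIF, IL1B and IL24. They were chosen with their FPKM (read level scaled for gene length and library depth) and their siLINC01291-to-siNC ratios in these libraries already known. Their values are therefore a description, and the adjusted p given with them are no independent support. Of the 9 genes, 7 are among the 18175 genes and loci of the expression table, and IL6 and IL1B are not analysed here. All 7 passed the filter for testing (2 or more libraries with an FPKM of 1 or above), but CXCL2, IL11 and CCL2 did so only through A375.

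The libraries are 1 each of A375 cells with siNC, A375 cells with siLINC01291, SK-MEL-28 cells with siNC and SK-MEL-28 cells with siLINC01291. A375 and SK-MEL-28 are established human melanoma lines that carry an activating BRAF mutation. siNC is the control siRNA, and siLINC01291 is named for the long non-coding RNA LINC01291. Both lines were grown in the same serum-containing medium, and the treatment label also names EL, which it does not explain. Each group is a single library of a single cell line, so within a line no difference has a replicate check. The p-values over both lines rest on 2 treatment pairs, 1 per line. Each gene's spread was also drawn toward that of all genes tested, so these p-values do not come from its 2 pairs alone.

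Chemokines are small secreted proteins that draw leukocytes along a concentration gradient through G-protein-coupled receptors. CXCL8, CXCL1 and CXCL2 belong to the ELR chemokines, which carry the residues Glu-Leu-Arg before their first cysteine and attract neutrophils through CXCR2 (CXCL8 also through CXCR1), while CCL2 attracts monocytes through CCR2. IL6, IL11 and LIF signal through the shared receptor chain gp130 to JAK kinases and STAT3, IL1B is the secreted form of interleukin-1 that is cut by caspase-1, and IL24 is a cytokine of the IL-10 family first described in differentiating melanoma cells. In melanoma, CXCL8 and CXCL1 are known as products of the tumour cells themselves. The transcription factors NF-kappaB, AP-1 and C/EBP and the AU-rich elements of the 3′ untranslated region (3′ UTR), which bind mRNA decay and stability factors, are the textbook controls of these transcripts.

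Depth was 30879719 and 31815336 counts in A375 and 29416145 and 29351240 counts in SK-MEL-28 (siNC, then siLINC01291). LINC01291, the targeted RNA, stood at an FPKM of 6.39 with siNC and 2.28 with siLINC01291 in A375, and at 8.11 and 3.70 in SK-MEL-28. With siLINC01291, 34.7% of its siNC level was left in A375 (95% exact interval 30.3 to 39.6) and 44.7% in SK-MEL-28 (39.9 to 50.01). The melanocyte marker SOX10 was at an FPKM of 80.1 to 147 in all 4 libraries, whereas the pigment gene PMEL was at 1.64 and 2.13 in A375 and at 804 and 1043 in SK-MEL-28. The 8 melanocyte markers summed to an FPKM of 92.4 and 133 in A375 and to 1617 and 1937 in SK-MEL-28. Of 8 leukocyte markers, LYZ was the 1 listed, at an FPKM of 1.57 and 1.94 in A375 and 0.0787 and 0.118 in SK-MEL-28. Of 4 endothelial markers, KDR was the 1 listed, at 0.784 and 2.37 in A375 (ratio 2.94, number 21 of 13244 from the highest) and 0.0428 and 0.0643 in SK-MEL-28. Of 5 keratinocyte markers, KRT10 and KRT14 were listed, with summed FPKM of 33.3 and 35.0 in A375 and 18.0 and 19.9 in SK-MEL-28. Of 6 fibroblast markers, LUM was the 1 listed, at 3.25 and 3.74 in A375 and 7.84 and 8.07 in SK-MEL-28. The part of these markers' cell types in the members' values was not tested. In bulk RNA, fewer cells that express a gene and less RNA per cell cannot be told apart.

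The 7 genes were not expressed alike in the 2 lines. In A375, 7 of 7 reached an FPKM of 1 in both libraries. In SK-MEL-28, 4 of 7 did so in both libraries: CXCL8, CXCL1, LIF and IL24. Next to this threshold lay IL24 in SK-MEL-28 with siLINC01291, just inside at 1.19, and IL11 in SK-MEL-28 with siNC, just outside at 0.456. Summed over the 7 genes, FPKM was 142 and 158 in A375 and 51.9 and 28.2 in SK-MEL-28. The median FPKM of all listed genes lay between 2.58 and 2.96 in the libraries.

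**Figure D1:**
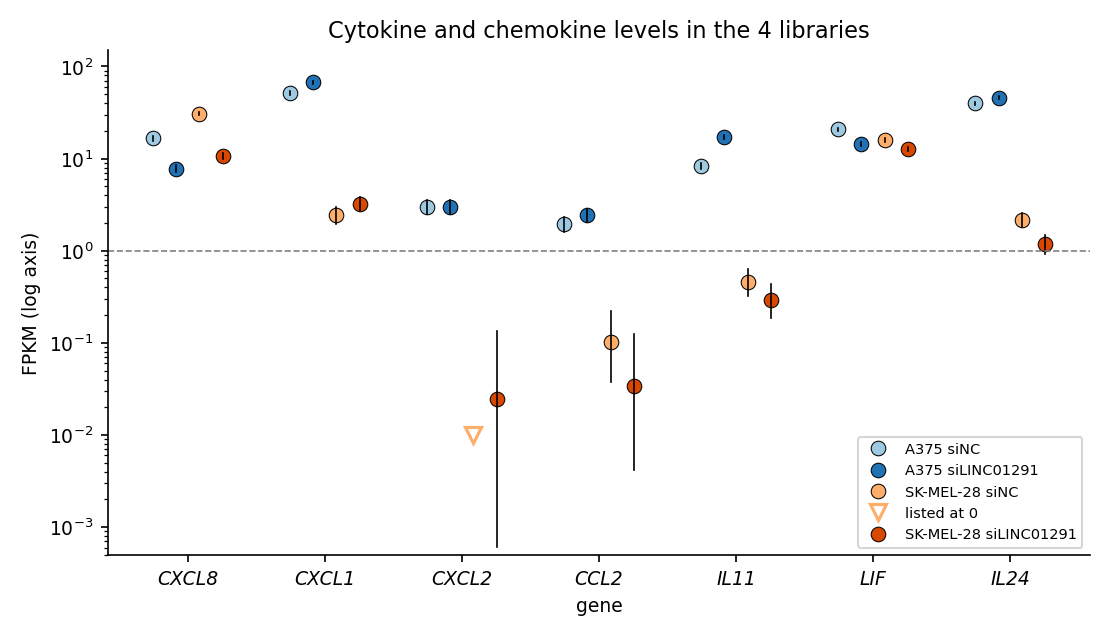
FPKM of the 7 genes (log axis) in each of the 4 libraries, with 95% exact Poisson intervals that cover counting error only and a dashed line at an FPKM of 1. CXCL1 and IL24 lead in A375 and CXCL8 and LIF in SK-MEL-28; the open triangle marks CXCL2 in SK-MEL-28 siNC, which is listed at 0 and drawn at an arbitrary height.

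Within A375 siNC the order of levels per length was CXCL1 (FPKM 51.3), IL24 (39.7), LIF (20.9), CXCL8 (16.6), IL11 (8.25), CXCL2 (2.98) and CCL2 (1.93). The counting intervals of neighbours in that order did not overlap. In SK-MEL-28 siNC the order was CXCL8 (30.8), LIF (16.0), CXCL1 (2.42) and IL24 (2.18), followed by IL11 (0.456) and CCL2 (0.102), and CXCL2 was listed at 0. There the intervals of CXCL1 (1.96 to 2.95) and IL24 (1.81 to 2.59) overlapped, so those neighbours were not separated at this depth. CXCL8 held FPKM rank 1380 of all listed genes in SK-MEL-28 siNC and rank 2804 in A375 siNC, and CXCL1 held rank 764 in A375 siNC and rank 9279 in SK-MEL-28 siNC.

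CXCL8, the main neutrophil chemokine of human cells, had an FPKM of 16.6 in A375 siNC (1149 counts), 7.79 in A375 siLINC01291 (557 counts), 30.8 in SK-MEL-28 siNC (2031 counts) and 10.6 in SK-MEL-28 siLINC01291 (700 counts). Both siLINC01291 libraries lay below both siNC libraries. In A375, 45.7% of the siNC level was left (41.3 to 50.7), which is 2.18-fold lower (log2 ratio -1.13). In SK-MEL-28, 33.9% was left (31.0 to 36.9), which is 2.95-fold lower (log2 ratio -1.56). Over both lines CXCL8 fell by 1.35 on the log2 scale (SE 0.13, edgeR's quasi-likelihood test with cell line as a block, adjusted p = 0.0171), lower in 2 of 2 lines. The adjusted p of CXCL8 was 0.0840 with limma on log2(FPKM + 1) and 0.115 with a pseudocount of 0.1, where the call was lost. Ordered from the lowest log2 ratio, CXCL8 was number 102 of 13244 expressed genes in A375, number 37 of 12336 in SK-MEL-28 and number 33 of 13501 over both lines. Beside it, LINC01291 itself fell over both lines (log2 -1.34, SE 0.13, edgeR adjusted p = 0.0171).

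Of the 7 genes, 1 fell (CXCL8) and 0 rose over both lines by edgeR, against 0.674% of the 13501 genes tested that fell and 0.222% that rose. At an unadjusted p under 0.05, 2 of the 7 were lower (CXCL8 and LIF) and 1 was higher (CXCL1), beside 8.37% and 8.53% of all genes tested. DESeq2, which gave an adjusted p for 5 of the 7, called 1 fall and 0 rises, beside 2.01% and 0.98% of its genes. With limma on log2(FPKM + 1), 0 of the 7 were called either way, beside 0.037% of genes that fell and 0.00741% that rose. Within A375, 1 of 7 (IL11) was at least 2-fold higher and 1 (CXCL8) at least 2-fold lower, beside 0.959% and 1.05% of the expressed genes. Within SK-MEL-28, 4 of the 7 were expressed: 0 of them reached a 2-fold increase and 1 (CXCL8) a 2-fold decrease, beside 1.73% and 1.54% of the expressed genes. The rule that chose the genes had used these ratios, so nothing is read from the counts. The median log2 ratio of the expressed members was 0.17 in A375 and -0.62 in SK-MEL-28, beside 0.00079 and 0.012 over all expressed genes.

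**Figure D2:**
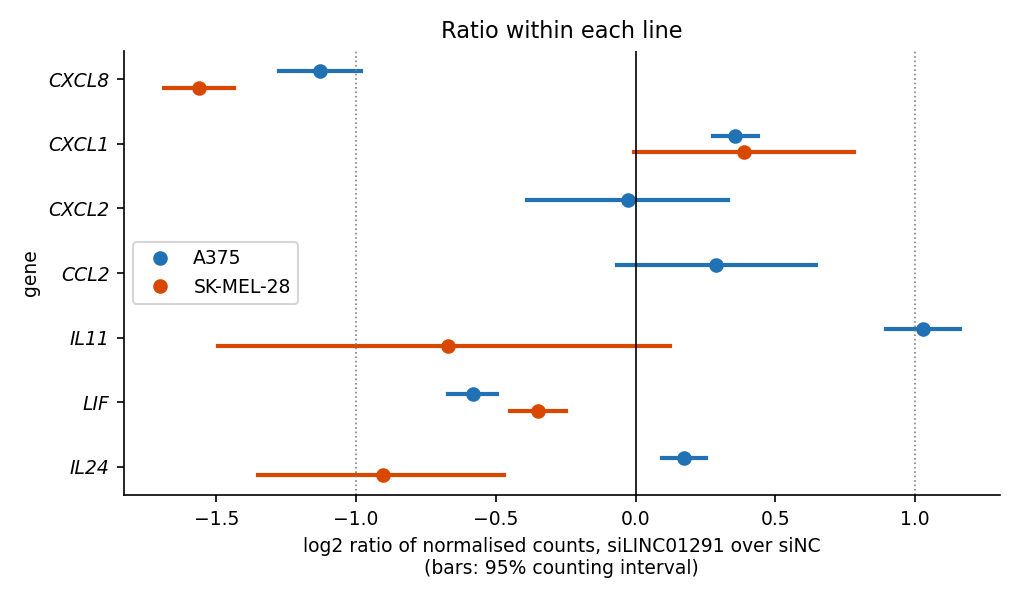
Log2 ratio of siLINC01291 to siNC of each gene in A375 and in SK-MEL-28, with 95% exact binomial intervals (counting error only); CXCL2 and CCL2 are left out in SK-MEL-28, where a library had 3 counts or fewer. The points of CXCL8 and LIF lie below 0 and that of CXCL1 above 0 in both lines, while those of IL11 and IL24 lie on opposite sides. In SK-MEL-28 the intervals of CXCL1 and IL11 include 0.

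CXCL8 is a gene of chromosome 4 (GENCODE 29, GRCh38, chr4:73740506-73743716, plus strand). Its promoter is shown because the NF-kappaB and AP-1 words (capitals) sit within 250 bases of the RefSeq transcription start (GRCh38.p14), at chr4:73740468-73740496 and chr4:73740422-73740448, plus strand. They begin 91 and 137 bases before that RefSeq start, which lies inside the GENCODE span. The third line is its AU-rich nonamer (capitals), 210 bases into the 3′ UTR of the GENCODE transcript.
CXCL8 promoter, NF-kappaB word: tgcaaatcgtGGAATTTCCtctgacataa
CXCL8 promoter, AP-1 word: ggaagtgtgaTGACTCAggtttgccct
CXCL8 3′ UTR, AU-rich nonamer: atgtaaagtaTTATTTATTtgaatctaca

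CXCL1, the melanoma growth-stimulating chemokine GRO-alpha, had an FPKM of 51.3 in A375 siNC (2165 counts), 67.5 in A375 siLINC01291 (2936 counts), 2.42 in SK-MEL-28 siNC (97 counts) and 3.22 in SK-MEL-28 siLINC01291 (129 counts). The A375 libraries were far above the SK-MEL-28 libraries, and in each line the siLINC01291 library was the higher. The ratio of siLINC01291 to siNC was 1.28 in A375 (1.21 to 1.35) and 1.31 in SK-MEL-28 (0.997 to 1.72), and the second interval reaches 1. Over both lines the log2 change was 0.37 (SE 0.11, edgeR adjusted p = 0.183), higher in 2 of 2 lines and not past the threshold.

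CXCL2, a close relative of CXCL1, had an FPKM of 2.98 in A375 siNC (129 counts) and 3.00 in A375 siLINC01291 (134 counts). In SK-MEL-28 it had 0 counts with siNC and 1 count with siLINC01291, both under the floor of 3 counts, so no fold is given there. Its ratio in A375 was 0.980 (0.764 to 1.26). CXCL3, the other ELR chemokine listed and not one of the 9, had 85 and 125 counts in A375 and 6 and 2 counts in SK-MEL-28. CXCL1, CXCL2 and CXCL3 are paralogs that share short stretches: 60 of the 1048 windows of 50 bases in the CXCL1 transcript (5.73%) occur unchanged in CXCL2 and 6 (0.573%) in CXCL3, and 54 of 1169 of CXCL2 (4.62%) occur in CXCL3. The effect of these stretches on the counts is not known, since how reads matching more than 1 gene were treated is not stated. The CXCL8 transcript shared 0 such windows with them.

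The mix of ELR chemokines differed between the lines and between siNC and siLINC01291. The FPKM of CXCL1, CXCL2, CXCL3 and CXCL8 summed to 72.1 in A375 siNC, 80.1 in A375 siLINC01291, 33.3 in SK-MEL-28 siNC and 13.9 in SK-MEL-28 siLINC01291. CXCL8 made up 23.0% of that sum in A375 siNC and 9.73% in A375 siLINC01291. In SK-MEL-28 it made up 92.5% with siNC and 76.4% with siLINC01291. CXCL1 made up 71.2 and 84.3% in A375 and 7.26 and 23.2% in SK-MEL-28. The summed level was thus higher with siLINC01291 in A375, where CXCL1 was the main transcript, and lower in SK-MEL-28, where CXCL8 was.

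**Figure D3:**
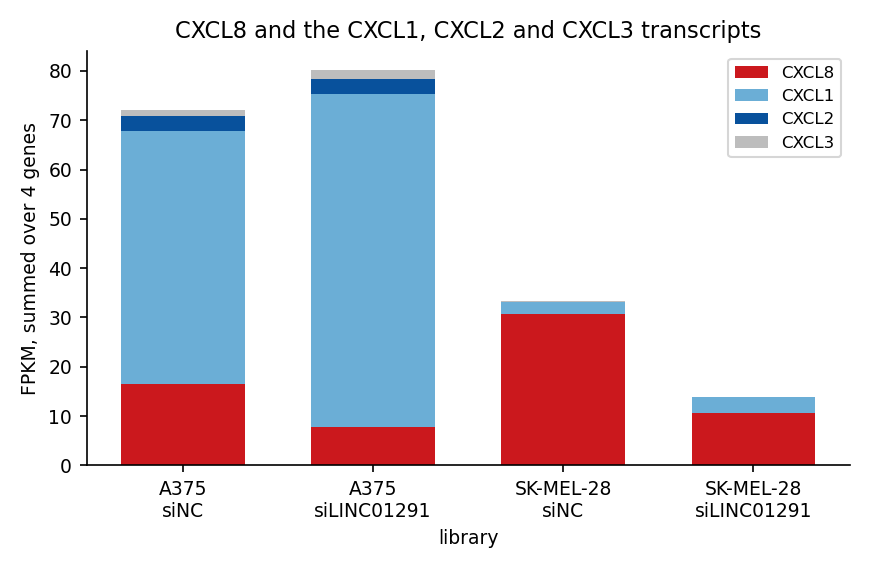
Stacked bars of the FPKM of the 4 listed ELR chemokines in each library (linear axis from 0). CXCL1 is the largest layer in both A375 libraries and CXCL8 in both SK-MEL-28 libraries, and the sum is 13.9 in SK-MEL-28 siLINC01291 against 33.3 in SK-MEL-28 siNC.

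CXCL1 (chr4:73869393-73871242, plus strand) and CXCL2 (chr4:74097035-74099293, minus strand) lie near CXCL8 on chromosome 4. Their promoter windows are shown because they share both NF-kappaB words (capitals) while their levels differ in both lines. With siNC, CXCL1 and CXCL2 had an FPKM of 51.3 and 2.98 in A375 and of 2.42 and 0 in SK-MEL-28. CXCL3 holds the same 2 words and is not shown. The CXCL1 windows are chr4:73869305-73869333 and chr4:73869330-73869358, plus strand, with the words 78 and 53 bases before the start. The CXCL2 windows are chr4:74099254-74099282 and chr4:74099230-74099258, minus strand, with the words 77 and 53 bases before the RefSeq start. Both CXCL2 windows lie inside the GENCODE span given above, since the GENCODE start of CXCL2 is upstream of the RefSeq start.
CXCL1 promoter, upstream word: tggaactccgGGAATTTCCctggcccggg
CXCL2 promoter, upstream word: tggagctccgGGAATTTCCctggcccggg
CXCL1 promoter, downstream word: cgggggctccGGGCTTTCCagccccaacc
CXCL2 promoter, downstream word: ccgggactccGGGCTTTCCagccccaacc

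CCL2, the monocyte chemokine MCP-1 (chr17:34255218-34257203, plus strand), had an FPKM of 1.93 in A375 siNC (119 counts) and 2.43 in A375 siLINC01291 (154 counts). It had 6 counts in SK-MEL-28 siNC and 2 counts in SK-MEL-28 siLINC01291. The ratio in A375 was 1.22 (0.955 to 1.56), which includes 1. In SK-MEL-28 it was 0.328 (0.0323 to 1.83), an interval too wide to give a direction at this depth.

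IL11, a gp130 cytokine of chromosome 19 (chr19:55364389-55370463, minus strand), had an FPKM of 8.25 in A375 siNC (684 counts) and 17.3 in A375 siLINC01291 (1477 counts). In SK-MEL-28 it stood at 0.456 with siNC (36 counts) and 0.292 with siLINC01291 (23 counts). In A375 the ratio was 2.04 (1.86 to 2.23), which placed IL11 at number 117 of 13244 expressed genes from the highest log2 ratio. In SK-MEL-28 it was 0.628 (0.355 to 1.09), an interval that includes 1. Over both lines the log2 change was 0.70 (SE 0.30, edgeR adjusted p = 0.319), higher in 1 of 2 lines.

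LIF, the gp130 cytokine known as leukemia inhibitory factor (chr22:30240447-30246851, minus strand), had an FPKM of 20.9 in A375 siNC (2503 counts), 14.3 in A375 siLINC01291 (1771 counts), 16.0 in SK-MEL-28 siNC (1829 counts) and 12.8 in SK-MEL-28 siLINC01291 (1462 counts). Both siLINC01291 libraries lay below both siNC libraries, as for CXCL8, but by less. In A375, 66.8% of the siNC level was left (62.8 to 71.0), and in SK-MEL-28 78.6% (73.3 to 84.2). Over both lines the log2 change was -0.47 (SE 0.10, edgeR adjusted p = 0.105), lower in 2 of 2 lines and not past the threshold.

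IL24 (chr1:206897443-206904139, plus strand) had an FPKM of 39.7 in A375 siNC (2434 counts) and 46.0 in A375 siLINC01291 (2908 counts). In SK-MEL-28 it stood at 2.18 with siNC (127 counts) and 1.19 with siLINC01291 (69 counts). The ratio was 1.13 in A375 (1.07 to 1.19) and 0.534 in SK-MEL-28 (0.392 to 0.721), so the intervals lay on opposite sides of 1. Over both lines the log2 change was -0.15 (SE 0.23, edgeR adjusted p = 0.796), lower in 1 of 2 lines.

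**Figure D4:**
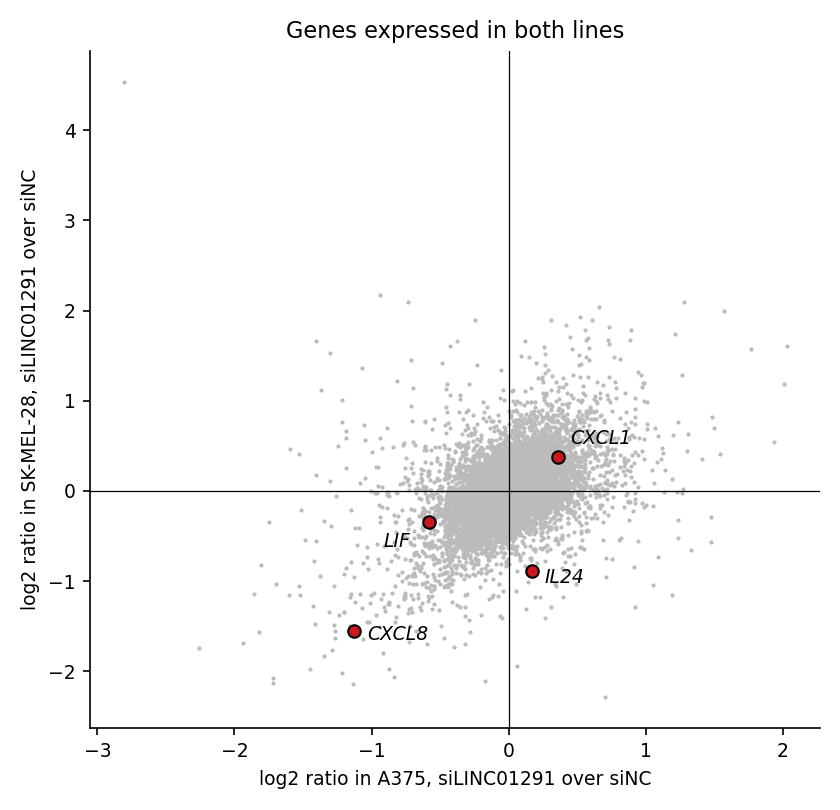
Log2 ratio of siLINC01291 to siNC in A375 (x) against SK-MEL-28 (y) for the 10988 genes expressed in both lines (grey), with the 4 of the 7 genes among them labelled. CXCL8 lies at -1.13 and -1.56, toward the edge of the cloud, and IL24 lies at 0.17 and -0.89.

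Between the lines, of the 7 genes 1 was higher in SK-MEL-28 (CXCL8) and 5 were lower (CXCL1, CXCL2, IL11, CCL2 and IL24), where 36.1% and 36.3% of the genes tested were. Since CXCL2, IL11 and CCL2 passed the filter through A375 alone, these counts carry no weight for them. CXCL8 was 1.80-fold higher in SK-MEL-28 over both treatments (log2 0.85, SE 0.13, edgeR adjusted p = 0.00134). With siNC it was 2.07-fold higher there (1.93 to 2.23), and with siLINC01291 1.54-fold higher (1.37 to 1.72). CXCL1 was 18.8-fold lower in SK-MEL-28 (log2 -4.23, SE 0.12, edgeR adjusted p = 1.22e-06). IL24 was 22.9-fold lower (log2 -4.52, SE 0.25, edgeR adjusted p = 1.17e-05).

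LIF was the member closest in level between the lines (log2 -0.11, SE 0.10, edgeR adjusted p = 0.381). Its A375-to-SK-MEL-28 ratio was 1.17 with siNC (1.10 to 1.24) and 0.992 with siLINC01291. With siNC, IL11 was 16.2-fold higher in A375 (11.6 to 23.3) and CCL2 16.9-fold higher (7.54 to 47.0). CXCL2 was 36.7-fold higher in A375 when SK-MEL-28 siNC was set to the floor of 3 counts per library. Its exact interval, from 0 counts in SK-MEL-28 siNC, starts at 29.4. With siLINC01291, the A375-to-SK-MEL-28 ratio was 34.5 for IL24 (27.2 to 44.5) and 52.6 for IL11 (34.9 to 83.2), against 16.3 and 16.2 with siNC.

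AU-rich words separate the 7 transcripts into those with and those without the nonamer TTATTTATT. The 3′ UTR of 1 principal GENCODE 29 transcript per gene was searched on its own strand for ATTTA and for TTATTTATT, which contains it. Overlapping matches were counted separately for both words. The nonamer occurred 6 times in IL11, 5 times in CXCL2, 3 times in CXCL1, 2 times in LIF and 1 time in CXCL8, and 0 times in CCL2 and IL24. Some of these matches overlap within a single repeat, so they are not separate sites. These are the matches at 148, 152, 156 and 160 in CXCL2, at 42, 46 and 50 in IL11, and at 148 and 152 in CXCL1. Of 10864 expressed genes searched, 8.95% hold it. ATTTA occurred 13.9 times per kilobase in CXCL2, 7.19 in CXCL8, 7.08 in CXCL1, 5.56 in IL11, 3.72 in IL24, 2.66 in CCL2 and 2.18 in LIF, beside a median of 1.73 over the genes searched. The sites below are shown because CXCL1 and CXCL2 hold the same 29 bases, 487 and 492 bases into their 3′ UTRs, while IL11 and LIF hold the nonamer (capitals) in other surroundings, 318 and 3098 bases in.
CXCL1 3′ UTR: atgtcagttgTTATTTATTgaaatgattt
CXCL2 3′ UTR: atgtcagttgTTATTTATTgaaatgattt
IL11 3′ UTR: ggaacatataTTATTTATTtaagcaatta
LIF 3′ UTR: cagattatttTTATTTATTcaatgtcata

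The words CTATGAA and TCTATGA, which had been selected earlier on the ratios of these same libraries, occurred in 0 of the 3′ UTRs of the 7 genes. Of the 10864 genes searched, 14.6% hold at least 1 of them. They matched 3 times in PAK2, 4 in IPMK and 3 in RBMS1, genes named further on. IL1RAP had 1 match, DCP1A 2 and JUN 0. The UTRs searched were 376 to 3204 bases long in the 7 genes and 1287 to 4559 in these others, beside a median of 1166.5 bases. Since 1 transcript per gene was searched, and the words had been selected on these ratios, nothing is read from these counts.

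Promoter words were searched in the 250 bases before the RefSeq start on both strands, without any other overlap rule. The NF-kappaB word GGNNTTTCC is held by 5.48% of the 35116 promoters, the AP-1 word TGACTCA by 4.20% and the C/EBP word TTGCNNAA by 9.05%. CXCL8 held 1 NF-kappaB and 1 AP-1 word, CXCL1 held 2 NF-kappaB words, and CXCL2 held 2 NF-kappaB words and 1 C/EBP word. IL11 held 1 AP-1 word on the opposite strand, 96 bases before its start (chr19:55370543-55370569, minus strand), and IL24 held none of the 3 words. LIF and CCL2 were not searched. The IL11 window is shown because IL11 was the member at least 2-fold higher in A375.
IL11 promoter, AP-1 word: gcagggagggTGAGTCAggatgtgtca

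From 12 lists of ligands, receptors and regulators, 186 genes that are not members were taken, of which 114 were listed and 102 tested. By edgeR 3 of the 102 fell (2.94%, beside 0.674% of all genes tested) and 0 rose (beside 0.222%). At an unadjusted p under 0.05, 18 were lower (17.6%, beside 8.37%) and 9 higher (8.82%, beside 8.53%). DESeq2, with an adjusted p for 85 of them, called 3 falls and 1 rise, beside 2.01% and 0.98% of its genes, and limma on log2(FPKM + 1) called 0 of either. The lists were chosen with earlier results of these data known.

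Of 17 receptor genes of the members, 8 were listed and 7 tested, of which 1 fell (14.3%, beside 0.674% of all genes tested). CXCR1, CXCR2, CCR2 and IL1R1 are not analysed here. IL6ST, which encodes gp130, had an FPKM of 20.3 and 19.1 in A375 and 16.9 and 13.1 in SK-MEL-28. LIFR, the partner chain for LIF, stood at 1.71 and 2.53 in A375 and at 0.0921 and 0.0643 in SK-MEL-28. IL1RAP, the shared chain of the interleukin-1 receptors, had an FPKM of 2.20 and 1.42 in A375 and 16.9 and 7.56 in SK-MEL-28, and fell over both lines (log2 -0.95, SE 0.14, edgeR adjusted p = 0.0468).

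Of 15 JAK and STAT pathway genes tested, 0 passed the threshold by edgeR (1 higher and 1 lower at an unadjusted p under 0.05), while DESeq2 called 1 rise. That gene, STAT3, which acts downstream of gp130 and was singled out after its values were seen, had an FPKM of 8.54 and 12.4 in A375 and 4.98 and 7.95 in SK-MEL-28 (log2 0.57, SE 0.09, edgeR adjusted p = 0.0590). Of 23 NF-kappaB pathway genes tested, 0 passed (2 higher and 4 lower at an unadjusted p under 0.05, and 0 by DESeq2), with a median log2 change of 0.016 over both lines.

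Of 11 C/EBP and AP-1 factors tested, 1 fell (9.09%, beside 0.674% of all genes tested). JUN, an AP-1 subunit, had an FPKM of 30.6 and 20.3 in A375 and 11.9 and 7.60 in SK-MEL-28 (log2 -0.65, SE 0.09, edgeR adjusted p = 0.0468). FOSL1, another AP-1 subunit and the most abundant of the list, stood at an FPKM of 356 and 307 in A375 and 105 and 89.5 in SK-MEL-28 (log2 -0.26, SE 0.07, edgeR adjusted p = 0.171). CEBPB, a C/EBP factor of cytokine promoters, stood at 32.5 and 17.3 in A375 and 33.9 and 31.1 in SK-MEL-28 (edgeR adjusted p = 0.217). Of 19 factors of AU-rich mRNA decay and stability tested, 1 fell (5.26%, beside the same share). This was DCP1A, a cofactor of mRNA decapping, with an FPKM of 13.8 and 6.16 in A375 and 8.31 and 3.34 in SK-MEL-28 (log2 -1.27, SE 0.10, edgeR adjusted p = 0.0130). The part of these factors in the fall of CXCL8 was not tested.

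**Figure D5:**
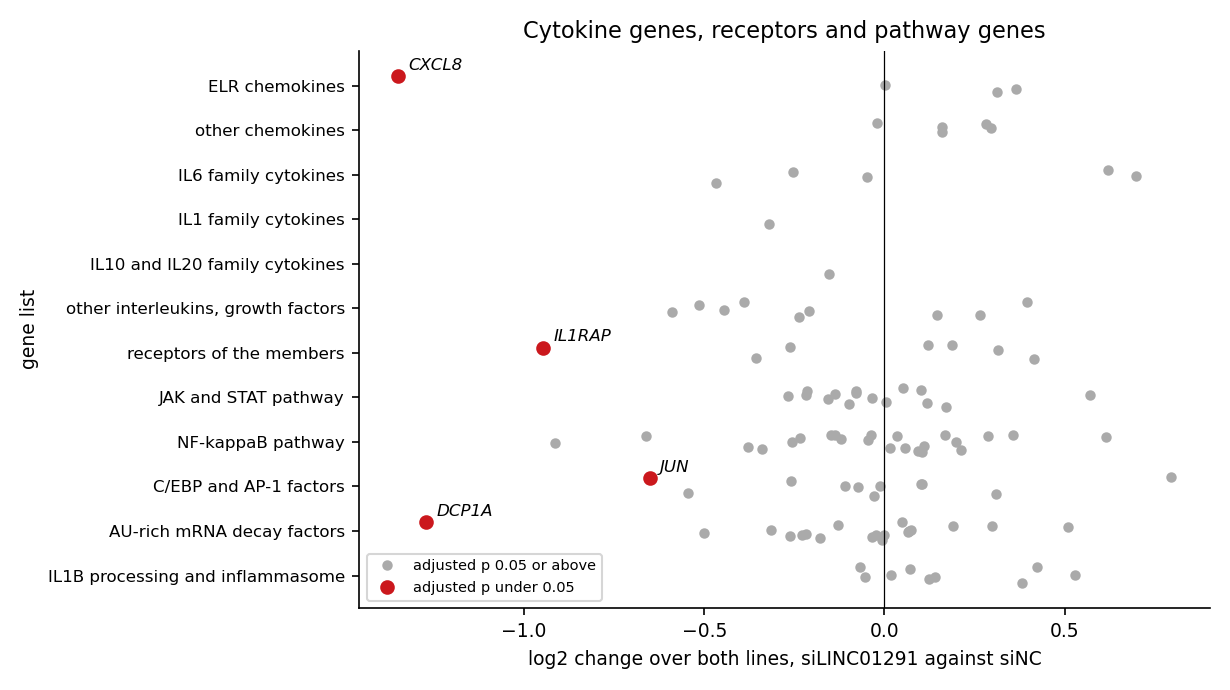
Log2 change over both lines (edgeR) of each gene tested, by list, with genes at an adjusted p under 0.05 in red and a vertical line at 0. CXCL8 at -1.35, DCP1A at -1.27, IL1RAP at -0.95 and JUN at -0.65 are the genes past the threshold.

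For each of the 3 most abundant members, the genes with the most similar pattern over the 4 libraries were sought among 12283 genes. Likeness was the Euclidean distance of centred log2 CPM (counts scaled for library depth, with a prior count of 2). This is a description of 4 points that share a cell line and a treatment pairwise. Nearest to CXCL8 were PAK2 (distance 0.289), IPMK (0.308) and RBMS1 (0.308). PAK2, a kinase activated by Rac and Cdc42, had an FPKM of 18.97 and 10.6 in A375 and 34.0 and 14.7 in SK-MEL-28. Nearest to CXCL1 were CCDC181 (0.146), IGFBP2 (0.212) and SEMA3B (0.223), and nearest to IL24 were SH2D1B (0.127), TMEM47 (0.161) and CHST1 (0.178). All of these neighbours of CXCL1 and IL24 were under an FPKM of 1 in both SK-MEL-28 libraries. Their values there ran from 0.0243 (SH2D1B with siLINC01291) to 0.984 (SEMA3B with siLINC01291). At such low levels the prior count bears on the distance, so their likeness within SK-MEL-28 is weakly resolved.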

How the data were processed

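Counts are whole reads per gene as deposited by the authors, counted with HTSeq after HISAT2 alignment and StringTie assembly, per the labels' protocols. FPKM and CPM were scaled by the authors from these counts and used as deposited. TPM, also deposited by the authors, were not used. The submitters' processing notes name hg19, DESeq2 and edgeR without a role. The annotation release and the strand of counting are not given in the sources used here, so coordinates come only from GENCODE 29 (GRCh38) and the RefSeq promoter table (GRCh38.p14).

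The members and gene lists were chosen with earlier results of these data known. The genes named are the members, LINC01291, list genes that passed the threshold for treatment or cell line or were among the 4 most abundant of their list, listed markers, the 3 nearest genes by pattern, and STAT3.

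Counts of 13501 genes (2 or more libraries with an FPKM of 1 or above) were fitted with edgeR 4.0.16 (R 4.3.3), with TMM factors, the quasi-likelihood test, treatment and cell line as terms and Benjamini-Hochberg adjustment at 0.05, leaving 1 residual degree of freedom. The cell line pairs the libraries, since both libraries of a pair come from the same line. Within a line, log2 ratios used a prior count of 2, and a gene counted as expressed when 1 or both libraries reached an FPKM of 1. Ratios carry exact (Clopper-Pearson) 95% binomial intervals over TMM-scaled totals, and FPKM carry exact Poisson intervals. Both cover counting error only. The floor was 3 counts, a CPM of 0.0943 to 0.102. Alternatives were DESeq2 1.42.0, limma 3.58.1 on log2(FPKM + 1) or log2(FPKM + 0.1), DESeq2 size factors, other filters and prior counts, and a fit without the block.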

Additional observations from a re-analysis of the deposited data

Results flagged for a closer look

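IL11, the gp130 cytokine, moved in opposite directions in the 2 lines: A375 had a log2 ratio of siLINC01291 to siNC of 1.02, and SK-MEL-28 one of -0.63. The SK-MEL-28 value rests on 36 and 23 counts, and its counting interval (0.628, 0.355 to 1.09) includes 1. IL24 also moved in opposite directions, with a log2 ratio of 0.17 for A375 cells and -0.89 for SK-MEL-28 cells, and both counting intervals exclude a ratio of 1. With 1 library per line and treatment, the difference between the lines was not tested for either gene.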

How the results depend on the processing

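With 1 library per group, no replicate could be left out. The number of genes that rose over both lines, 30 with edgeR, was 146 without a filter on low values, 92 with a count of at least 10 in 2 libraries, 99 with DESeq2, 1 with limma on log2(FPKM + 1) and 0 with log2(FPKM + 0.1), where 2120 genes had an unadjusted p under 0.05. The number that fell, 91, was 238, 186, 203, 5 and 0 under the same settings. Without the cell line as a block, which pairs the libraries, 0 rose and 0 fell by edgeR (51 genes at an unadjusted p under 0.05).

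CXCL8 kept its direction under each alternative tried, with edgeR or DESeq2 adjusted p from 4.30e-08 to 0.0188 where the block was kept. It lost the call with limma (-1.22, adjusted p = 0.0840, and -1.30, adjusted p = 0.115, with pseudocounts of 1 and 0.1) and with edgeR without the block (-1.41, adjusted p = 1.00). Without the block on treatment, its line difference was 0.93 (edgeR adjusted p = 0.220). Signs turned for values that had not passed the test: CXCL2 was -0.0036 without a filter, -0.0032 with the count filter and -0.015 without the block, CCL2 was -0.31 with DESeq2 and -0.14 with limma and a pseudocount of 0.1, and IL24 was 0.13 without the block.

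Genes at least 2-fold higher in A375, 127, numbered 223 on deposited CPM without a prior count and 41 on log2(FPKM + 1), and those lower, 139, numbered 52 on log2(FPKM + 1). In SK-MEL-28 the 214 higher and 190 lower numbered 79 and 87 on log2(FPKM + 1). Depth limits CXCL2 and CCL2 in SK-MEL-28, at 0 to 6 counts.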

Other observations

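Other genes of the lists differed between the lines as well. Of all genes tested, 36.1% were higher and 36.3% lower in SK-MEL-28. CCL20, the ligand of CCR6, had an FPKM of 0.547 and 0.550 in A375 and 8.938 and 8.998 in SK-MEL-28. CLCF1, a further gp130 cytokine, ran the other way, at 10.3 and 10.6 in A375 and 0.351 and 0.296 in SK-MEL-28. CASP1, the protease that cuts pro-IL1B, was at 0.0437 and 0.0593 in A375 and 14.6 and 14.9 in SK-MEL-28. GDF15, a stress-induced cytokine of the TGF-beta family, had an FPKM of 10.2 with siNC and 4.91 with siLINC01291 in A375, and of 26.74 and 29.04 in SK-MEL-28. CCL20, CLCF1, CASP1 and GDF15 were singled out after their values were seen.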
